A study of Rattus norvegicus with 87 samples.

Results

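The 4 opioid receptor genes were examined in tissue of the lateral habenula (LHb) from Heterogeneous Stock (HS) rats: Oprm1 (ENSRNOG00000018191), Oprk1 (ENSRNOG00000007647), Oprd1 (ENSRNOG00000010531) and Oprl1 (ENSRNOG00000016768). The genes were taken as the members of the receptor family, by their Ensembl identifiers, and all 4 were among the 17512 genes of the table. The samples were polyadenylated RNA of the LHb, a small epithalamic nucleus, with the tissue of both sides of a rat collected together and 1 library for each rat. Of 87 labelled samples, 81 rats (41 males and 40 females) had a column of values, and the other 6 were not analysed here. The animals came from the outbred HS population, lived in groups and had had no behavioral test or drug exposure. The labels gave no age.

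The labels also placed each rat in a rat batch. There were 15 rats in batch 2 (11 male, 4 female), 22 in batch 3 (10 male, 12 female), 27 in batch 4 (12 male, 15 female) and 16 in batch 6 (8 of each sex). A lone female made up batch 5. The columns of the table stood in 3 stretches of alphabetically ordered rat identifiers, here named runs 1 (22 rats), 2 (12 rats) and 3 (47 rats), apart from 2 rats at the head of run 2 whose identities the authors had exchanged. What divided the columns into runs was not stated. Batch 2 lay wholly in run 1, and batches 4, 5 and 6 wholly in run 3. Batch 3 was spread over run 1 (7 rats), run 2 (12 rats) and run 3 (3 rats). Batches 4 and 6 could thus be compared within a run, and batch 3 could be compared with batch 2 within run 1 and with batch 4 within run 3. Batch 2 shared no run with batches 4 and 6, so a direct comparison of these does not tell batch from run.

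Opioid receptors are G protein-coupled receptors that act through inhibitory Gi/o proteins, lowering cyclic AMP, opening potassium channels and reducing calcium entry, and so they dampen neuronal firing and transmitter release. Oprm1 encodes the mu receptor, the main target of morphine and of the endogenous enkephalins and beta-endorphin. Oprk1 encodes the kappa receptor, whose ligands are the dynorphins, Oprd1 encodes the delta receptor, which binds enkephalins, and Oprl1 encodes the receptor for nociceptin/orphanin FQ, a related receptor with low affinity for classical opioids. The LHb relays aversive and reward omission signals to midbrain dopamine and serotonin systems. The neighboring medial habenula is known for dense mu receptor expression. In tissue samples such as these, fewer cells of a type and less RNA per cell cannot be told apart.

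Values are normalized counts, that is, estimated read counts that the authors scaled to a similar upper quartile in each rat, which lay between 853.25 and 870. Tests were made on log2(count + 1), so a change of a gene with few reads is understated. Across rats the number of genes listed at 0 ran from 296 to 1661. In 66 rats the scaling could be undone from the spacing of the values, giving totals of 5740000 to 36600000 reads with a median of 18600000. In those rats the median number of reads was 172.5 for Oprm1, 93.5 for Oprk1, 4 for Oprd1 and 956.5 for Oprl1. The receptors therefore differed widely in the precision of each measurement. Their levels are not ranked against each other because the values are not per transcript length.

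The mu receptor varied most between rats among the 3 receptors with more than a few reads. Oprm1 ranged from 39 to 273 normalized counts with a median of 150, a 7-fold range, and its mean was 7.0 ± 0.78 on the log2 scale (SD, n = 81). The kappa receptor, Oprk1, had a median of 82 counts and ranged over 4.31-fold from its lowest value of 32, with a mean of 6.35 ± 0.40 on the log2 scale (SD, n = 81). The nociceptin receptor, Oprl1, ranged from 618 to 1112 with a median of 840, a 1.8-fold range (9.74 ± 0.18, SD, n = 81).

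The delta receptor, Oprd1, was near the lower end of what these libraries could measure. Its normalized count ran from 0 to 17 with a median of 3, and 10 of 81 rats were listed at 0. A single read changes such a value by a large fraction.

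Males and females overlapped nearly completely for every receptor. Oprm1 ran from 39 to 273 counts in the 41 males (6.89 ± 0.78 on the log2 scale, SD) and from 42 to 270 in the 40 females (7.11 ± 0.77), with a median of 167.5 in females. Oprk1 had a lowest count of 42 and a median of 78 in males (6.37 ± 0.38) and a lowest of 32, a median of 84 and a highest of 137 in females (6.34 ± 0.42). The medians of each sex thus lay well inside the range of the other. Oprd1 stood at 0, 4 and 17 in males, of which 7 were at 0, and at 0, 3 and 11 in females, of which 3 were at 0. Oprl1 stood at 618, 828 and 1095 in males and at 633, 853.5 and 1112 in females. The lower male mean of Oprm1 was taken over rats unevenly divided among the batches, since 11 of the 15 rats of batch 2 were males and that batch had the lowest Oprm1.

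**Figure D1:**
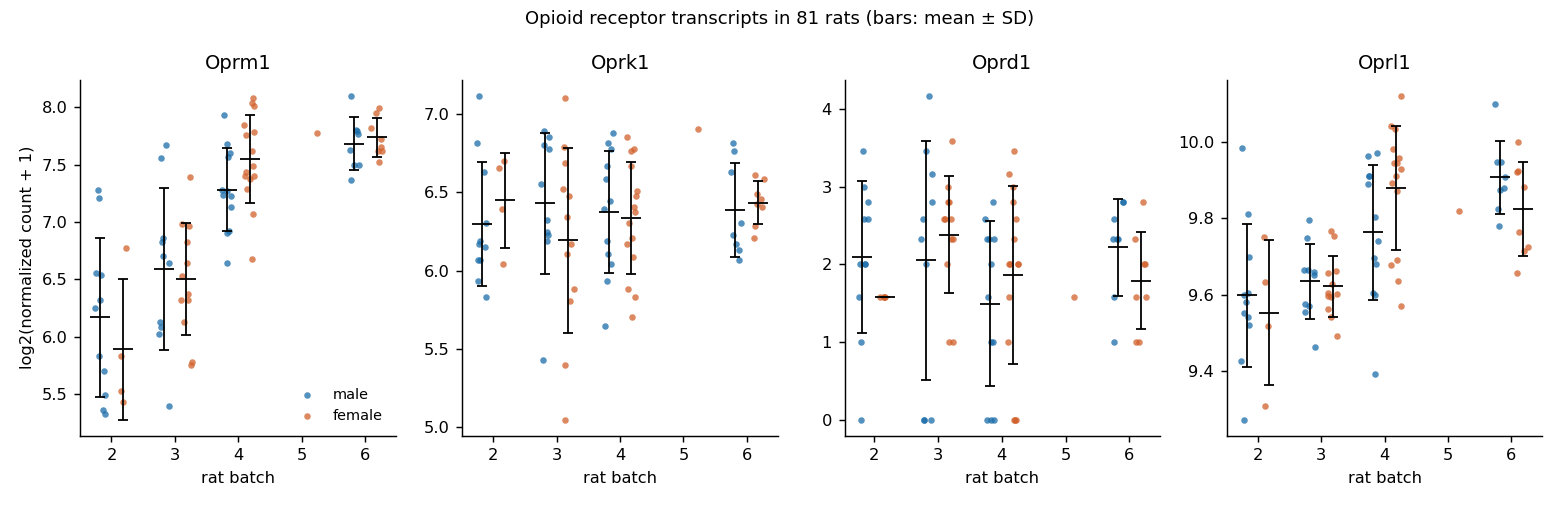
Each point is the log2(normalized count + 1) of 1 of 81 rats, by rat batch on the horizontal axis and colored by sex, and each bar is the mean ± SD of males or of females in a batch. Oprm1 was lowest in batch 2 and highest in batch 6, Oprk1 had no batch difference that passed the test, 10 rats were at 0 for Oprd1, and the scale of each panel differs.

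With rat batch as a covariate, no receptor passed the test for sex (limma, Benjamini-Hochberg over 17512 genes, n = 80, batch 5 left out because it held 1 rat). The fitted difference, males minus females, was -0.04 on the log2 scale for Oprm1 (SE 0.11, adjusted p = 0.998), with a 95% interval of the fold from 0.837 to 1.13. For Oprk1 it was 0.05 (SE 0.092, adjusted p = 0.998) with a fold interval of 0.911 to 1.17, and for Oprl1 it was -0.01 (SE 0.034, adjusted p = 0.998) with a fold interval of 0.946 to 1.04. For Oprd1 it was -0.05 (SE 0.23, adjusted p = 0.998) with a fold interval of 0.701 to 1.32. The interval was narrowest for Oprl1 and widest for Oprd1. The count of 0 of 4 receptors stands beside 23 genes, or 0.131% of all genes tested, that passed. At an unadjusted p under 0.05, 882 genes but no receptor passed.

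Within single batches the sign of the sex difference was not the same for any receptor. For Oprm1, males minus females was 0.28 (SE 0.359) in batch 2, 0.09 (SE 0.242) in batch 3, -0.27 (SE 0.141) in batch 4 and -0.06 (SE 0.101) in batch 6. Oprl1 differed by 0.05 (SE 0.104), 0.01 (SE 0.0488), -0.12 (SE 0.0648) and 0.08 (SE 0.0551) in batches 2, 3, 4 and 6. Oprk1 differed by -0.15 (SE 0.212), 0.24 (SE 0.221), 0.04 (SE 0.145) and -0.05 (SE 0.124). None of these reached an unadjusted p under 0.05, and the lowest was 0.0684, for Oprm1 in batch 4 (limma within the batch). When the sex difference of each receptor was tested for a change from batch to batch, all 4 receptors had an adjusted p of 1 (limma F-test). That test called 0 genes in all, 0% of those tested, and 306 genes had an unadjusted p under 0.05.

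**Figure D2:**
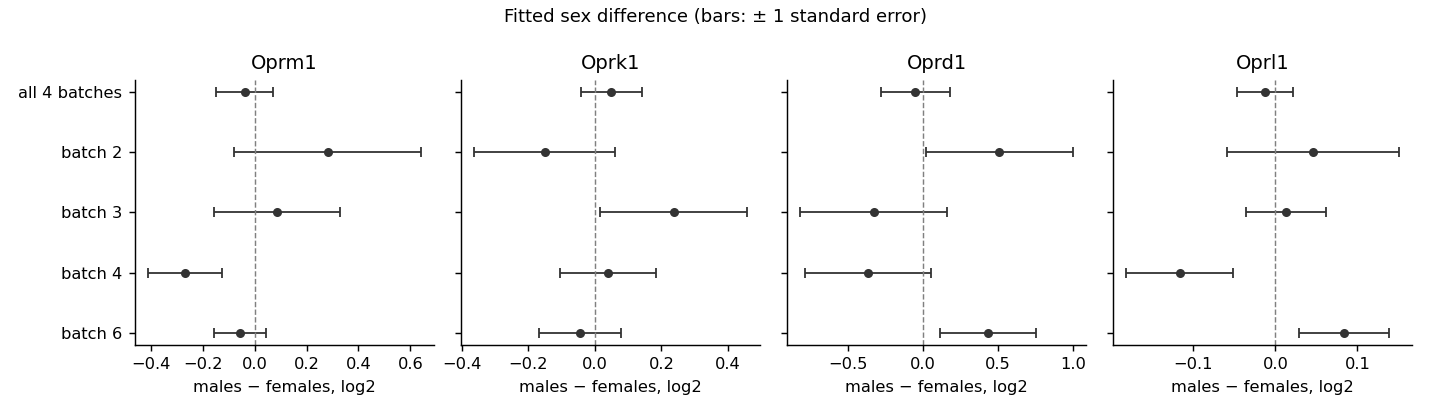
Fitted difference of males minus females on the log2 scale for each receptor, over all 4 batches and within batches 2, 3, 4 and 6, with bars of ± 1 standard error and a dashed line at no difference. The signs are mixed in each panel, and in batch 4 Oprm1 was at -0.27 and Oprl1 at -0.12.

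Oprm1 differed most between rat batches. Its lowest, median and highest counts were 39, 56 and 154 in batch 2, 41, 95 and 203 in batch 3, 99, 168 and 270 in batch 4, and 164, 205 and 273 in batch 6. Every rat of batch 6 was above every rat of batch 2, a separation found in 1.77% of all genes, while neighboring batches overlapped. Under 100 counts were 12 of 15 rats of batch 2, 13 of 22 of batch 3, 1 of 27 of batch 4 and 0 of 16 of batch 6. The fitted means spanned 1.61 on the log2 scale, a 3.045-fold difference between batches 6 and 2 (SE 0.17, limma adjusted p = 1.89e-11), where 42.4% of genes passed.

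The mean log2 value of Oprl1 followed the same order of batches over a narrower span, with batches 4 and 6 close together. Its lowest, median and highest counts were 618, 765 and 1011 in batch 2, 705, 784.5 and 888 in batch 3, 671, 949 and 1112 in batch 4, and 806, 941.5 and 1095 in batch 6. All 4 ranges overlapped, and the fitted difference between batches 6 and 2 was 0.28 (SE 0.054), a 1.21-fold difference (limma adjusted p = 2.24e-05).

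Oprk1 and Oprd1 showed no difference between batches that passed the test. Oprk1 had medians of 72, 79.5, 83 and 84.5 counts in batches 2, 3, 4 and 6, and fitted means within 0.11 of each other on the log2 scale (limma F-test, adjusted p = 0.884). Oprd1 had medians of 3, 5, 3 and 3.5 counts (adjusted p = 0.386), with 6 of the 10 rats at 0 in batch 4. For Oprm1 the same F-test gave an adjusted p of 2.88e-14 and for Oprl1 of 1.67e-07. Passing was common for this test, since 65.3% of all genes did so, and 2 of 4 receptors is close to that background.

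In the order of the Oprm1 levels, batches 3 and 4 were the neighbors that differed. Batch 4 exceeded batch 3 by 0.89 (SE 0.14, 1.85-fold, limma adjusted p = 1.24e-07). Oprl1 rose across the same step by 0.20 (SE 0.043, 1.15-fold, adjusted p = 4.89e-05), and 54.9% of all genes passed here. Batch 3 against batch 2 gave 0.44 for Oprm1 (SE 0.16, adjusted p = 0.0819) and 0.04 for Oprl1 (SE 0.050, adjusted p = 0.684), where 7.44% of genes passed. Batch 6 against batch 4 gave 0.28 for Oprm1 (SE 0.15, adjusted p = 0.235) and 0.04 for Oprl1 (SE 0.047, adjusted p = 0.646), where 6.04% passed. At this last step all rats were of run 3, whereas between batches 3 and 4 most rats changed from runs 1 and 2 to run 3. Within run 3, Oprm1 was 7.01 ± 0.48 in the 3 rats of batch 3 (99 to 187 counts) and 7.43 ± 0.39 in the 27 rats of batch 4 (99 to 270 counts), on the log2 scale with SD. These ranges overlapped, and the difference within run 3 was not tested. The 3 rats of batch 3 in run 3 had 1404, 1578 and 1550 genes at 0, against a median of 540 over all 81 rats. Among them, the recovered totals of the males were below the median of 18600000 reads, the lower being 5740000. The total of the female was above that median.

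**Figure D3:**
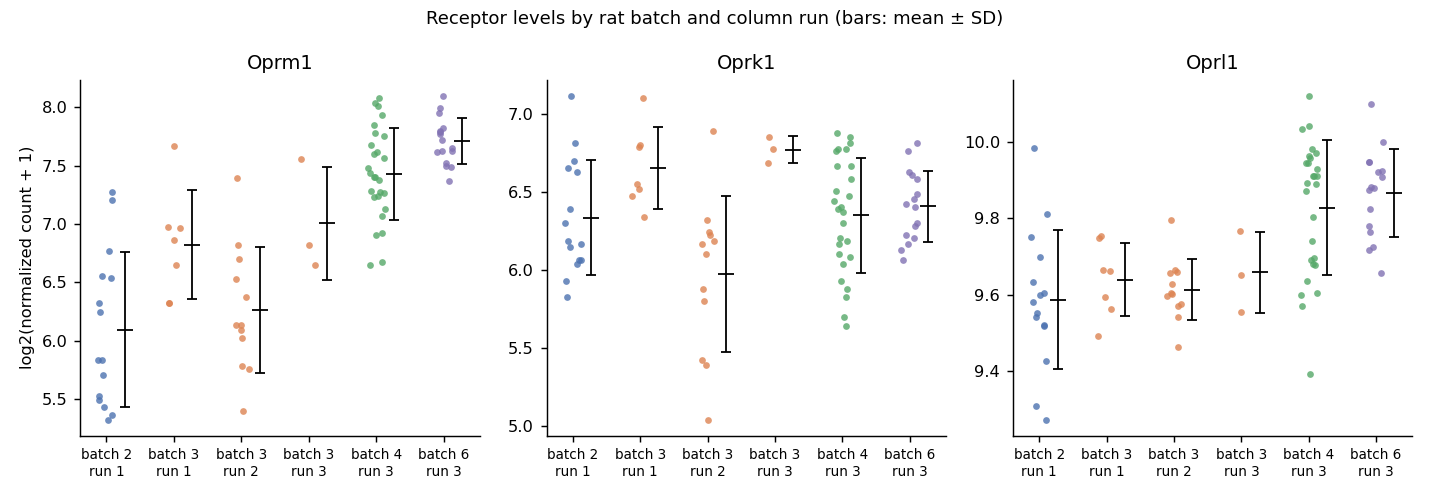
Each point is the log2(normalized count + 1) of 1 of 80 rats, by rat batch and column run, with bars of mean ± SD beside the points, for the 3 receptors with enough reads to compare. Within batch 3, Oprk1 lay lower in run 2 (median 69.5 counts) than in run 1 (median 93 counts), and Oprm1 had medians of 69 and 115 counts.

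Batch and run could be separated where they crossed. Within run 1, Oprm1 had a median of 115 counts in the 7 rats of batch 3 and of 56 in the 15 rats of batch 2. The ranges, 79 to 203 and 39 to 154, overlapped, and the fitted difference of 0.90 (SE 0.282) had an unadjusted p of 0.00383 and an adjusted p of 0.493 (limma). No gene passed that comparison (0% of those tested), although 1507 had an unadjusted p under 0.05. Within run 3, batch 6 exceeded batch 4 by 0.29 for Oprm1 (SE 0.101, adjusted p = 0.0576), just outside the threshold that 10% of genes passed. The same rats gave 0.28 (SE 0.15) in the fit of all 4 batches, whose SE draws on the spread in all of them. Oprl1 differed by 0.08 within run 1 and 0.04 within run 3 (adjusted p = 0.782 and 0.63). Oprk1 differed by 0.28 and 0.06, of which the first had an adjusted p of 0.648.

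Within batch 3, the kappa receptor differed between runs. Oprk1 ranged from 80 to 137 counts in the 7 rats of run 1, from 32 to 118 in the 12 rats of run 2 and from 102 to 115 in the 3 rats of run 3. Run 2 thus held every rat of batch 3 under 80 counts. The log2 value in run 1 exceeded that in run 2 by 0.75 (SE 0.195, adjusted p = 0.0122 by limma), a threshold that 23% of all genes also passed. Oprm1 differed in the same direction by 0.59 (SE 0.241, adjusted p = 0.0799), with ranges of 79 to 203 and 41 to 167. Oprl1 differed by 0.04, with medians of 809 and 777 counts. With run as a covariate, the batch difference of Oprm1 remained past the threshold (range of fitted means 1.41, limma adjusted p = 0.00513). That of Oprl1 was no longer past it (0.252, adjusted p = 0.268). In that fit 6180 of 17512 genes passed, against 11444 without run. Only the 3 rats of batch 3 in run 3 linked batches 2 and 3 to the batches wholly in run 3. Both ranges thus rest in part on those rats. With 20 expression components as covariates, neither Oprm1 (0.739, adjusted p = 0.36) nor Oprl1 (0.101, adjusted p = 0.625) passed. Only 20 of 17512 genes passed there, so losing the call was the rule for all genes.

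After sex and rat batch were removed, the spread of each receptor between rats was set beside the spread that counting reads alone would give and beside other genes of a similar level (mean within 0.5 on the log2 scale). Oprm1 had a residual SD of 0.489, against 0.132 from counting alone and a median of 0.3035 over 1680 genes of like level, of which 89.1% had a lower SD. Oprk1 had 0.403, against 0.156 from counting and a median of 0.368, with 62.1% of 1317 genes lower. The spread of Oprm1 thus stood nearer the upper end of genes of its level than that of Oprk1. Oprl1 had 0.147, against 0.0493 from counting and a median of 0.178, with 27.5% of 2589 genes lower. Oprd1 had 1.01, against 0.649 from counting and a median of 1.04.

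The spread of Oprm1 was wider in the batches where it was low than in those where it was high, a difference that was not tested. Its SD after sex was 0.67, 0.60, 0.38 and 0.20 for batches 2, 3, 4 and 6, respectively. The genes of like level, chosen by their mean over all rats, had median SDs of 0.27, 0.34, 0.30 and 0.24 in the same batches. Oprm1 lay above these medians in batches 2, 3 and 4, and below in batch 6. Its own mean was 6.09 in batch 2 and 7.71 in batch 6, so these genes were not matched to its level within a batch. For Oprl1 the SDs were 0.19, 0.088, 0.17 and 0.11, with no such order.

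**Figure D4:**
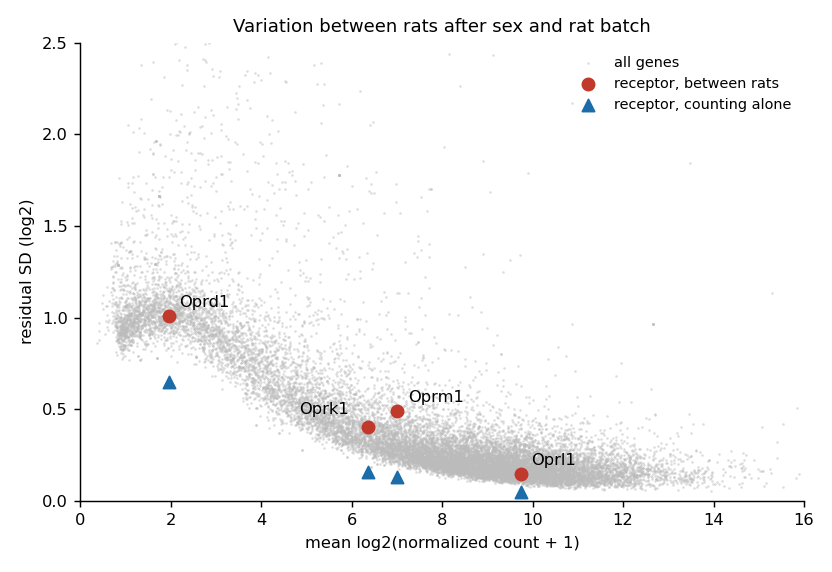
Residual SD after sex and rat batch against the mean log2(normalized count + 1), with 1 grey point for each gene (73 of 17512 genes lie beyond the axes), circles for the receptors and triangles for the SD that counting alone gives. Oprm1, at 0.489, lies in the upper part of the genes of its level, and Oprl1, at 0.147, in the lower part.

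Of the 6 pairs of receptors, Oprm1 and Oprl1 had the closest relation across rats. On residuals after sex and rat batch, Pearson's r was 0.53 (n = 80, permutation p = 1e-05, the smallest that 100000 permutations within batches can give) and Spearman's rho was 0.477 (permutation p = 2e-05). Without the 2 rats farthest from the median of Oprm1, r was 0.494. Within batches 2, 3, 4 and 6, r was 0.70, 0.364, 0.57 and 0.60, and within runs 1, 2 and 3 it was 0.603, 0.502 and 0.553. The relation was thus positive in each batch and in each run. With each receptor in turn as a covariate for the other, limma gave adjusted p-values of 9.26e-06 and 4.83e-05 over all genes. With the first 20 expression components as covariates, r was 0.181 and the pair was not called (adjusted p = 0.852). Many genes passed the tests without these components: 44.5% were associated with Oprm1 and 27.4% with Oprl1. With the components, 0 of 17511 genes were associated with Oprm1 and 13 with Oprl1, so losing a call there was the rule for all genes.

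The rat with the highest count of both genes within batch 2, a male, had 154 counts of Oprm1 and 1011 of Oprl1, and the male with the lowest of both had 39 and 618. In batch 6 the male with 273 counts of Oprm1 also had the highest Oprl1, 1095. The lowest of both in batch 3, 41 and 705, also came from 1 male. The other extremes did not coincide. The highest Oprm1 of batch 3 (203 counts) came with 811 of Oprl1, and its highest Oprl1 (888) with 112 of Oprm1. The highest Oprm1 of batch 4 (270) came with 984 of Oprl1, below the highest of that batch (1112). The lowest values of the genes in batches 4 and 6 came from different rats. Both values of a rat come from 1 library and 1 dissection, so anything that differs between libraries is shared by the pair. Residuals of Oprm1 and Oprl1 had r of -0.125 and -0.307 with the number of genes at 0 (n = 80), and of -0.197 and -0.125 with the recovered total of reads (n = 65), both on a log10 scale. On the first principal component of all genes, which held 15% of the variance, Oprm1 had an r of 0.848 and Oprl1 of 0.70. Oprk1 had 0.299 and Oprd1 -0.248 on that component. The part of library content and dissection in these relations was not tested.

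Oprm1 and Oprk1, the mu and kappa receptors, were related less closely and not in every batch. The pooled r was 0.312 (n = 80, permutation p = 0.0112), rho was 0.24 (permutation p = 0.0442), and r without the 2 rats farthest from the median of Oprm1 was 0.261. It was 0.419 in batch 2 and 0.527 in batch 3, but 0.06 in batch 4 and -0.464 in batch 6, so the relation did not hold within batches 4 and 6. The adjusted p-values of limma were 0.0157 and 0.0256, where 44.5% and 26.3% of genes passed. The call was lost with run as a covariate (r = 0.177), without batch 3 (0.131), with ranks (0.2, adjusted p = 0.318), by Spearman (adjusted p = 0.119) and with no covariates (0.245, adjusted p = 0.0828), and with 20 expression components r was -0.136.

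**Figure D5:**
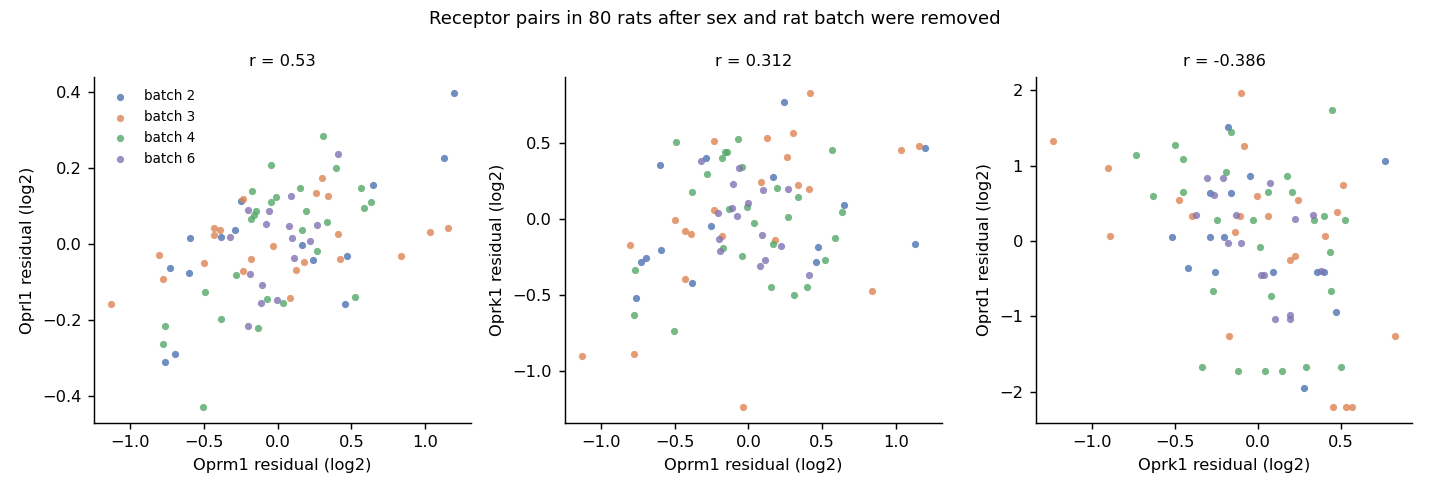
Residuals on the log2 scale after sex and rat batch for 3 pairs of receptors, 1 point for each of 80 rats, colored by batch, with Pearson's r above each panel. Oprm1 and Oprl1 were positively related (r = 0.53), Oprm1 and Oprk1 were more loosely related (r = 0.312), and the horizontal bands at the bottom of the Oprd1 panel (r = -0.386) are rats listed at 0.

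For Oprk1 and Oprd1, r was -0.386 (n = 80, permutation p = 0.00128), rho was -0.375 (permutation p = 0.00113) and r without 2 rats was -0.343. It was -0.141, -0.528, -0.266 and -0.491 in batches 2, 3, 4 and 6 and -0.225, -0.62 and -0.31 in runs 1, 2 and 3, and so was negative in each. By limma the adjusted p was 0.00537 with Oprk1 as the covariate, where 26.3% of genes passed. It was 0.218 with Oprd1 as the covariate, where 0.0114% of genes passed. The larger p missed the threshold, so the pair was not called. Oprd1 rests on a median of 4 reads, and its residuals had an r of 0.326 with the recovered total of reads, against -0.247 for Oprk1. The part of depth in this relation was not tested.

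The other 3 pairs did not pass. Oprk1 and Oprl1 had an r of 0.215 (n = 80, permutation p = 0.0444) and a rho of 0.168 (permutation p = 0.137), with adjusted p-values of 0.158 and 0.151 by limma and an r of -0.208 within batch 6. Oprm1 and Oprd1 had an r of -0.139 (permutation p = 0.243), and Oprd1 and Oprl1 of -0.003 (permutation p = 0.979).

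Oprm1 had more genes correlated with it than Oprk1 or Oprl1. Among the 13359 genes whose mean log2 value reached 5, 2358 (17.7%) had an absolute r over 0.5 with Oprm1, and 71.7% of genes had fewer such partners. Oprk1 had 400 (2.99%) and Oprl1 373 (2.79%), both below the median of 605 partners over all genes. Over all 17511 genes tested, those associated with Oprm1 by limma were evenly divided, with 3870 positive and 3914 negative. Among the 13359 genes, those most like Oprm1 were ENSRNOG00000002863 (r = 0.811) and ENSRNOG00000002468 (r = 0.806). The most opposed of them was ENSRNOG00000020676 (r = -0.696), each over 80 rats. The table does not pair these identifiers with gene names.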

How the data were processed

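RNA-Seq had been performed on LHb tissue of HS rats. The authors trimmed reads with cutadapt, estimated gene counts against the Ensembl rat transcriptome (Rnor_6.0) with RSEM and applied an upper quartile adjustment with DESeq2. Versions are not given in the sources used here. The deposited values are log2 values with a pseudocount of 1, and all gave whole numbers within a relative tolerance of 1e-05 once undone, so the counts had been rounded after scaling. The identities of 2 rats had been exchanged by the authors.

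The log2 values were fitted with limma 3.58.1 (lmFit, eBayes with trend) in R 4.3.3, using sex and rat batch as terms, all 17512 genes and Benjamini-Hochberg adjustment at 0.05. Fits were tested on simulated data. Correlations were made in Python 3.11.15 with scipy 1.17.1. Depth was known for 66 of 81 rats. Relatedness among the outbred rats was not modelled, and p-values treat them as independent.

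The receptors were picked by identifier with no value used, but they and the lists were chosen with earlier results of these data known. The named genes were the receptors and, among genes that reached a minimum mean level, those most and least like each, of which up to 2 of each kind are printed. Pathway and cell type marker lists, the check of the labelled tissue against its markers and levels per length need names or lengths that the table and reference used here do not pair with these identifiers, and were not run. Alternatives are given in the closing section.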

Additional observations from a re-analysis of the deposited data

Results flagged for a closer look

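In 16 sets of 4 to 10 rats of 1 sex, batch and receptor, 1 rat lay far from the rest of its set, where about 0.8 would be found by chance at 1 in 20. A male of batch 3 in run 2 had an Oprk1 value of 5.43 on the log2 scale (42 normalized counts), while the other 9 males of that batch lay between 6.19 and 6.89 (72 to 118 counts). The same rat had the lowest Oprm1 (41 counts) and the lowest Oprl1 (705 counts) of batch 3, 8 counts of Oprd1 and 594 genes at 0. Oprk1 was lower still in females of the same batch and run, at 32 and 41 counts.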

How the results depend on the processing

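Of 51 sex results, 42 kept their sign and none passed the threshold. The difference of males minus females turned positive with 20 expression components as covariates for Oprm1 (0.591) and Oprd1 (1.42), without batch 4 for Oprm1 (0.0867), Oprl1 (0.0437) and Oprd1 (0.113), and for Oprd1 without batch 3 (0.0567), with a pseudocount of 8 (0.0179) and with ranks (0.0127). Without batch 3 that of Oprk1 was -0.0269. Of 51 batch results, 48 kept their call. With 20 components the range between batches was 0.739 for Oprm1 (adjusted p = 0.36) and 0.101 for Oprl1 (0.625), and with run it was 0.252 for Oprl1 (0.268). All 47 interaction results stayed short of the threshold.

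Of 81 pair results, 64 kept sign and call. For Oprm1 and Oprk1, r was -0.136 with 20 components, and the call was lost with ranks (0.2), run (0.177), no covariates (0.245), Spearman (0.24) and without batch 3 (0.131). For Oprm1 and Oprl1, r fell to 0.181 with 20 components (adjusted p = 0.852) and otherwise kept its call over 14 alternatives. The highest r, 0.748, came with no covariates, where the batch differences of both genes were left in. The next highest was 0.62, without batch 3. For Oprm1 and Oprd1, r was 0.118 with 20 components and 0.00445 without batch 3. For Oprd1 and Oprl1 it was 0.144 with 20 components, 0.00946 with a pseudocount of 8, 0.0199 with ranks, 0.0154 with run, 0.0372 without the exchanged rats, 0.0193 without batch 2, 0.0374 without batch 3 and 0.0344 by Spearman. The causes were not tested.

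Residual SDs with 20 components were 0.29 for Oprm1, 0.298 for Oprk1 and 0.109 for Oprl1, and with a pseudocount of 8 they were 0.367 for Oprk1 and 0.342 for Oprd1. Genes passing for sex were 7 in place of 23 with 20 components. Genes passing for batch were 20 with 20 components and 6180 with run, in place of 11444. With a pseudocount of 8, 1 gene passed for interaction. Genes associated with Oprm1 were 0 with 20 components and 4840 without batch 3, in place of 7784. For Oprk1 they were 1 with 20 components, 75 without batch 3, 1292 with run, 2296 with ranks and 2663 by Spearman, in place of 4609. For Oprl1 they were 13 with 20 components, 1498 without batch 4, 2511 without batch 2 and 10121 with no covariates, in place of 4802. For Oprd1 they were 0 in 12 alternatives, in place of 2.

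Depth limits Oprd1, with its median of 4 reads, most. Covariates for medial habenula and thalamus markers and levels per coding length were not run, since the table and the reference used here pair no names or lengths with the identifiers. No paired analysis was possible because the number of a rat is only its place in its own sex and ties no male to a female.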

Other observations

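The single female of batch 5 had 218 normalized counts of Oprm1, 119 of Oprk1, 2 of Oprd1 and 903 of Oprl1. Its Oprm1 lay within the range of batch 6 (164 to 273), and its Oprk1 was above the highest of batch 6 (112) and of batch 4 (117).

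Oprd1 had an adjusted association with 2 genes, both positive, among them ENSRNOG00000030568 (r = 0.496, limma adjusted p = 0.0445 over 80 rats). In 12 alternatives no gene was associated with Oprd1.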
